A study of Homo sapiens with 6 samples.

Results

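The genes described here are those of the route that supplies cells with UDP-N-acetylglucosamine (UDP-GlcNAc) and CMP-sialic acid, the activated sugars from which sialylated glycans are built. Of 10 genes on the list, 8 had a probe set whose RefSeq transcript named them (GFPT1, GFPT2, GNPNAT1, UAP1, GNE, NANS, CMAS and SLC35A1), each with 1 probe set. PGM3 and NANP had none and were not analysed here. These 8 probe sets are among 1259 in the table, of which 1043 carry 1 gene symbol and cover 927 genes. They were measured in HCT-15, a line grown from a human colorectal tumour, in 3 arrays of cells treated with 5-aza-2'-deoxycytidine and 3 arrays of untreated cells. The drug is a cytidine analogue that enters DNA and traps DNA methyltransferases, so that methylation is lost as cells divide. The sources used here give neither its dose nor how long it was applied, and the labels do not state whether replicates were separate cultures, so the spread between arrays may be technical. The submitters asked which glycan-related genes change in cells that show more sialyl Lewis x, a sialylated ligand of E-selectin, after the drug.

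The hexosamine pathway takes fructose-6-phosphate and the amide nitrogen of glutamine into glucosamine-6-phosphate, a step catalysed by GFPT1 and GFPT2 that is rate-limiting and, in GFPT1, inhibited by the end product UDP-GlcNAc. GNPNAT1 acetylates the product, PGM3 moves the phosphate, and UAP1 joins the sugar to UTP to give UDP-GlcNAc. In vertebrates GNE, an epimerase and kinase in 1 protein, turns UDP-GlcNAc into N-acetylmannosamine-6-phosphate and is inhibited by CMP-sialic acid. NANS condenses that with phosphoenolpyruvate, NANP removes the phosphate to give sialic acid, CMAS activates it to CMP-sialic acid in the nucleus, and SLC35A1 carries CMP-sialic acid into the Golgi for the sialyltransferases.

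The drug leads to loss of methylation at CG pairs, so the sequence just upstream of a gene is of interest. GFPT2 and GFPT1 share a step and changed by different amounts, and CMAS is the gene with the largest fall. The 250 bases before the RefSeq start are printed for these genes in that order. They lie at chr5:180353337-180353586 (minus strand), chr2:69387228-69387477 (minus strand) and chr12:22045968-22046217 (plus strand) of GRCh38.p14, read 5′ to 3′ on the gene's strand, and capitals mark each CG.
GFPT2: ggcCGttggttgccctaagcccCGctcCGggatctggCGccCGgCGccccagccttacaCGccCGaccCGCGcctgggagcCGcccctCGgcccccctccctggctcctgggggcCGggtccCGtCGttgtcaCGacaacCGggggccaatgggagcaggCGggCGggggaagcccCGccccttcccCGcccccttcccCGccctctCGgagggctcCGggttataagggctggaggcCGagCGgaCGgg
GFPT1: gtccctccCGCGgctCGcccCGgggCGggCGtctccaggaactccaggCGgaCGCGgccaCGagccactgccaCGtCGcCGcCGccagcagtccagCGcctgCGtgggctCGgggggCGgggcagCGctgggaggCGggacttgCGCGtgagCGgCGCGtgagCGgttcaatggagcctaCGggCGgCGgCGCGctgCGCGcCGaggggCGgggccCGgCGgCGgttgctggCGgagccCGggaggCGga
CMAS: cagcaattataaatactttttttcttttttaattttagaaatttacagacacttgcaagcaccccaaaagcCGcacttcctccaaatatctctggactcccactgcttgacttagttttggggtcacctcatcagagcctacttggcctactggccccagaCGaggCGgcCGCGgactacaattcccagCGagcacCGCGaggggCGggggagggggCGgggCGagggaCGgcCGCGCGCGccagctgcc

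The GFPT2 window held 27 CG pairs, the GFPT1 window 41 and the CMAS window 16. CG was counted on the printed strand, and its reverse complement is again CG. Over 35116 promoters of the RefSeq table the median was 11, and 17.7% held at least 27, 1.73% at least 41 and 41.0% at least 16. In CMAS 15 of the 16 lie in the 100 bases nearest the start, against 10 of 27 in GFPT2 and 19 of 41 in GFPT1. The 10 listed genes have 14 annotated starts in the table, with a median of 27 CG pairs and a range of 4 to 41, and the 1027 starts of genes named on the array had a median of 16. The start of GNE that lies farthest 5′ was the poorest with 4, whereas its other start had 27. GNPNAT1 had 31 CG pairs, NANS 30 and SLC35A1 25, and the 3 starts of UAP1 had 26, 39 and 36. Windows of genes that rose thus held 4 to 41 CG pairs, and those of genes that fell held 16 to 31. Whether the number of CG pairs is related to the direction of change was not tested. Methylation was not measured in these samples.

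Values are log2 probe set values, and a gene is said to have risen or fallen where limma's test over all 1259 probe sets gave an adjusted p under 0.05. Array medians lay between 5.90 and 5.92 in treated cells and between 5.81 and 5.88 in untreated cells, and pairs of arrays correlated at 0.9974 to 0.9987 within the treated group and at 0.9978 to 0.9982 within the untreated group. The title of untreated replicate 3 calls the array treated, although its source name and treatment label, like its title's leading letter, mark it untreated, so results are also given without it. For each of the 7 genes called below, the value of this array lay on the untreated side. Those genes were called with the array placed in the untreated group, so this does not check its label. Over all probe sets, however, this array correlated with the other untreated arrays at 0.9978 or more. Pairs of a treated and an untreated array, its own among them, correlated at only 0.9817 to 0.9844. Its values thus went with those of the untreated arrays. Of 4 measured epithelial marker genes the mucins MUC1 (8.50 in treated and 7.20 in untreated cells) and MUC13 (8.93 in treated and 7.97 in untreated cells) rose, the galectin LGALS4 fell (9.03 in treated and 9.54 in untreated cells) and MUC2 was not called, and their summed linear signal was 1378 to 1530 in treated and 1160 to 1216 in untreated arrays. Of 9 measured leukocyte markers 3 rose and 1 fell, with sums of 291.6 to 309.2 in treated and 246.7 to 268.3 in untreated arrays. Among these rises, that of KLRD1 was seen in its brighter probe set (log2 change 0.25) and not in its other one (0.02, not called). Of 9 stromal and endothelial markers 2 rose and 1 fell, with sums of 294.2 to 317.7 in treated and 249.3 to 294.0 in untreated arrays. The called shares were 75% of epithelial, 44.4% of leukocyte and 33.3% of stromal and endothelial markers, against 34.8% of all probe sets. Marker genes are named here outside the rule for named genes. The part of these markers in the results was not tested, and fewer cells with a transcript cannot be told apart from less RNA per cell.

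Treatment was followed by changes in both directions along the route. GFPT1, GFPT2, UAP1 and GNE rose, GNPNAT1, NANS and CMAS fell, and SLC35A1 was not called. Thus 7 of 8 probe sets were called (87.5%), against 34.8% of all probe sets. The 8 were among the brighter ones: their means were at or above those of 58.2% (GFPT2) to 88.6% (NANS) of all probe sets. Without the dimmest probe sets, 360 of 840 were called, and the same count of 7 among the 8. The 4 rises compare with 18.0% of all probe sets called as higher, and the 3 falls with 16.8% called as lower (227 and 211 probe sets, or 197 and 311 once arrays were centred on their medians). In the same 7 the treated and untreated arrays did not overlap, as in 46.1% of all probe sets. The median size of change over the 8 was 0.45 on the log2 scale, against 0.15 over all 1259, and the median signed change was 0.16 against -0.01. These counts describe the genes and do not test the pathway. Without untreated replicate 3, 6 of the 8 were called, with GFPT1 lost, and without treated replicate 1, 5 were called, with GFPT1 and GNE lost, so that 2 rises were left.

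**Figure D1:**
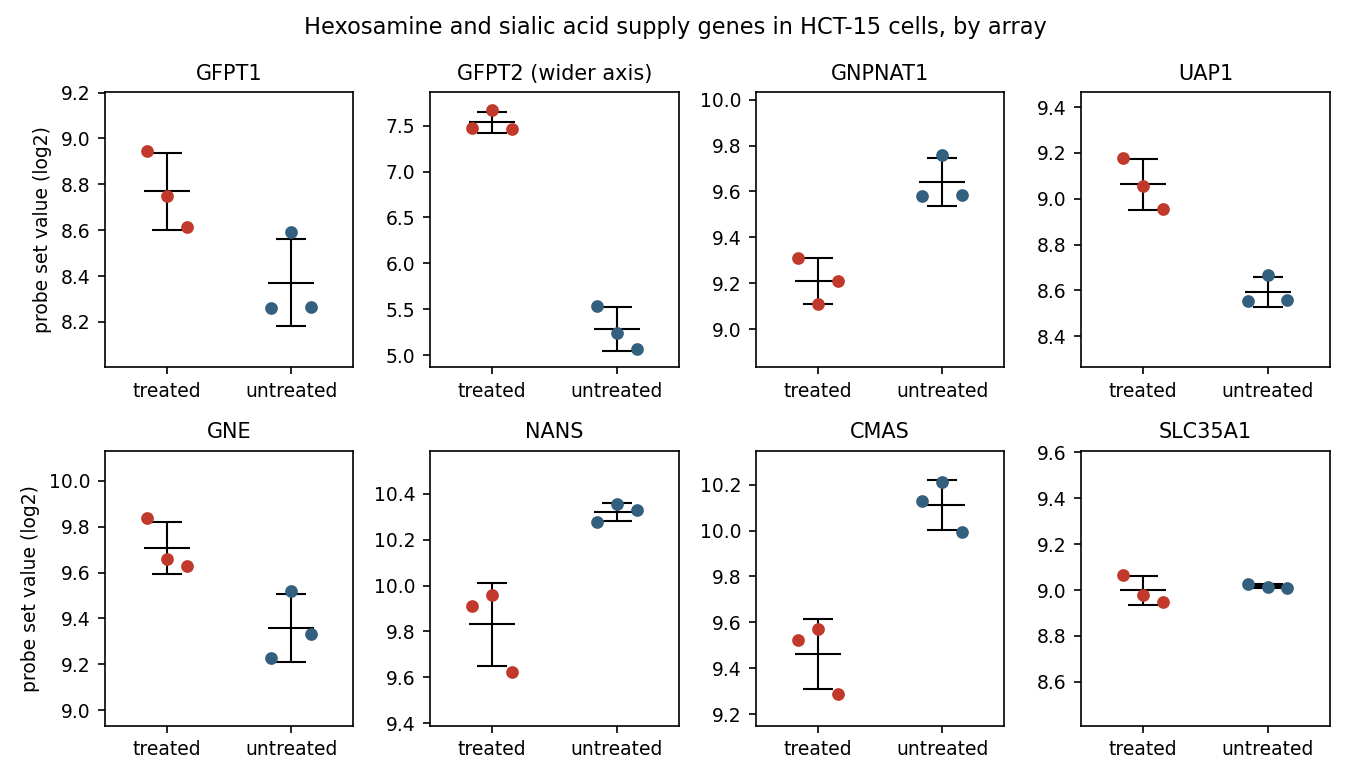
Log2 probe set value of each gene (vertical axes, each spanning 1.2 log2 units except GFPT2) in 3 treated (red) and 3 untreated (blue) arrays, with replicates 1 to 3 in order from the left; horizontal bars are means and whiskers SD (n = 3 per group). Treated arrays lie above untreated arrays for GFPT1, GFPT2, UAP1 and GNE and below them for GNPNAT1, NANS and CMAS, while the groups overlap for SLC35A1.

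At the entry step, GFPT2 had values of 7.48, 7.67 and 7.47 in treated replicates 1 to 3, against 5.54, 5.24 and 5.07 in untreated replicates 1 to 3. All treated arrays lay far above all untreated arrays, with a gap of 1.93 between the nearest values. GFPT2 averaged 7.54 ± 0.11 in treated and 5.28 ± 0.24 in untreated cells (SD, n = 3 each), a log2 change of 2.26 ± 0.12 (SE) or 4.78-fold (95% confidence interval 4.0 to 5.71, limma adjusted p = 1.94e-07). It was the 8th largest change by size among the 1259 probe sets, and the other genes of the route changed by at most 0.65. Over the 6 arrays, with each probe set centred on its untreated mean, the 3 genes outside the route with the most similar profile were SULT1C4, a cytosolic sulfotransferase (root mean square distance 0.22), HS6ST2, a heparan sulfate 6-O-sulfotransferase (0.30), and the chemokine CCL5 (0.30). These are genes with rises of like size, since the measure compares the size of change in 2 groups only.

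GFPT1, the isoform found in most tissues, had values of 8.95, 8.75 and 8.61 in treated replicates 1 to 3, against 8.26, 8.59 and 8.26 in untreated replicates 1 to 3. The lowest treated array and untreated replicate 2 were only 0.02 apart, so the groups barely separated. The means were 8.77 ± 0.17 in treated and 8.37 ± 0.19 in untreated cells (SD, n = 3 each), and GFPT1 rose by 0.40 ± 0.11 (SE, 1.32-fold, interval 1.11 to 1.56, limma adjusted p = 0.0163). The call rested on single arrays and on the scaling: the limma adjusted p was 0.0744 without treated replicate 1, 0.0582 without untreated replicate 3 and 0.0519 with arrays centred on their medians. Over all 12 alternatives it ranged between 0.00481 and 0.0744, and the change stayed positive in each.

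The enzymes that follow went opposite ways. GNPNAT1, the glucosamine-6-phosphate N-acetyltransferase, had values of 9.31, 9.11 and 9.21 in treated replicates 1 to 3, against 9.58, 9.76 and 9.58 in untreated replicates 1 to 3. Every treated array lay below every untreated one, and the nearest values were 0.27 apart. GNPNAT1 averaged 9.21 ± 0.10 in treated and 9.64 ± 0.10 in untreated cells (SD, n = 3 each) and was 1.35-fold lower (log2 change -0.43 ± 0.08 SE, limma adjusted p = 0.00195).

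UAP1, the pyrophosphorylase that completes UDP-GlcNAc, had values of 9.18, 9.06 and 8.96 in treated replicates 1 to 3, against 8.56, 8.67 and 8.56 in untreated replicates 1 to 3. The treated arrays all lay higher, with a gap of 0.29 to the nearest untreated value. UAP1 averaged 9.06 ± 0.11 in treated and 8.59 ± 0.06 in untreated cells (SD, n = 3 each) and rose by 0.47 ± 0.08 (SE, 1.38-fold, limma adjusted p = 0.000782). GNPNAT1 and UAP1 kept their direction and call in all 12 alternatives. The value for the PGM3 step between them was not analysed here.

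The branch from UDP-GlcNAc to sialic acid opened with a rise. GNE had values of 9.84, 9.66 and 9.63 in treated replicates 1 to 3, against 9.23, 9.52 and 9.33 in untreated replicates 1 to 3. Untreated replicate 2, the highest untreated array for GNE as for GFPT1, came within 0.11 of the lowest treated array. GNE averaged 9.71 ± 0.11 in treated and 9.36 ± 0.15 in untreated cells (SD, n = 3 each) and was 1.27-fold higher (log2 change 0.35 ± 0.09 SE, limma adjusted p = 0.0128). Without treated replicate 1 the rise was 0.28 and the limma adjusted p 0.0629, the only one of 12 alternatives in which GNE was not called.

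The later enzymes of sialic acid synthesis were lower. NANS, the sialic acid 9-phosphate synthase, had values of 9.91, 9.96 and 9.62 in treated replicates 1 to 3, against 10.28, 10.36 and 10.33 in untreated replicates 1 to 3. All treated arrays lay at least 0.32 below the untreated ones, which were within 0.08 of each other, and treated replicate 3 was the lowest. NANS averaged 9.83 ± 0.18 in treated and 10.32 ± 0.04 in untreated cells (SD, n = 3 each) and was 1.40-fold lower (log2 change -0.49 ± 0.09 SE, limma adjusted p = 0.00181). The ending of its probe set name marks a set whose probes can bind more than 1 transcript, so its value is less specific than those of the other called genes.

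CMAS, the CMP-sialic acid synthetase, had values of 9.52, 9.57 and 9.29 in treated replicates 1 to 3, against 10.13, 10.21 and 9.995 in untreated replicates 1 to 3. It had the clearest separation of the falls, with 0.42 between the nearest arrays, and treated replicate 3 was again the lowest. CMAS averaged 9.46 ± 0.15 in treated and 10.11 ± 0.11 in untreated cells (SD, n = 3 each) and was 1.57-fold lower (log2 change -0.65 ± 0.09 SE, limma adjusted p = 0.000264). Without treated replicate 3, CMAS fell by 0.57 and NANS fell by 0.39, and both were still called.

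SLC35A1, the Golgi CMP-sialic acid transporter, had values of 9.07, 8.98 and 8.95 in treated replicates 1 to 3, against 9.03, 9.01 and 9.01 in untreated replicates 1 to 3. The untreated values sit inside the spread of the treated ones. Its log2 change was -0.02 ± 0.07 (SE, limma adjusted p = 0.898), with a 95% confidence interval of -0.17 to 0.13, or 0.89 to 1.10 on the linear scale. Its probe set too can bind more than 1 transcript.

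**Figure D2:**
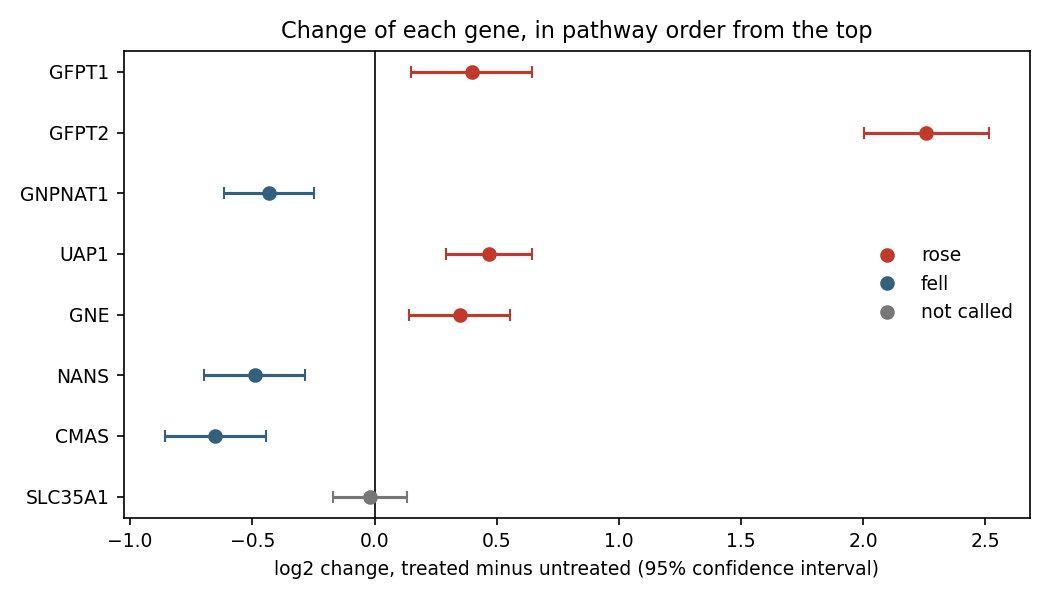
Log2 change of each gene, treated minus untreated (horizontal axis), with limma's 95% confidence interval (3 arrays per group); genes run from the entry of the route at the top to Golgi transport at the bottom. GFPT2 stands alone at 2.26, the other called genes lie between -0.65 and 0.47, and the interval of SLC35A1 spans 0.

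Changes of neighbouring steps were set against each other through the log2 ratio of their probe sets within each array. Such a ratio is unchanged by a shift of all log2 values of an array, but not by quantile normalization. The 7 pairs follow the order of the route and were fixed after the values were seen. The level of such a ratio has no meaning between probe sets, so each is given relative to its untreated mean. GFPT2 over GFPT1 stood at 1.62, 2.01 and 1.94 in treated replicates 1 to 3, against 0.37, -0.26 and -0.11 in untreated replicates 1 to 3, a difference of 1.86 ± 0.23 (SE). The isoforms thus changed unequally, by a factor of 3.63. UAP1 over GNPNAT1 stood at 0.91, 1.00 and 0.79 in treated arrays, against 0.02, -0.05 and 0.02 in untreated arrays, a difference of 0.90 ± 0.06 (SE).

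NANS over GNE stood at -0.89, -0.66 and -0.97 in treated replicates 1 to 3, against 0.09, -0.12 and 0.03 in untreated replicates 1 to 3, a difference of -0.84 ± 0.11 (SE). The ratio across the middle of the sialic acid branch was thus 1.79-fold lower in treated cells. GNPNAT1 over GFPT1 differed by -0.83 ± 0.09 (SE) and SLC35A1 over CMAS by 0.63 ± 0.10 (SE). The 2 smallest differences joined steps that moved the same way: GNE over UAP1 differed by -0.12 ± 0.06 (SE) and CMAS over NANS by -0.16 ± 0.06 (SE). In GNE over UAP1 the nearest treated and untreated arrays both stood at -0.10, and in CMAS over NANS both nearest arrays were close (-0.13 and -0.12).

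None of the 7 ratios overlapped between groups, as is the case for 54.5% of all 791911 pairs of probe sets on the array. The exact permutation test (two-sided) gave p = 0.1 for each, also after Benjamini-Hochberg adjustment over the 7, which is the smallest p that 3 against 3 arrays allow. Any ratio without overlap must give this p, so the test adds nothing to the lack of overlap.

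**Figure D3:**
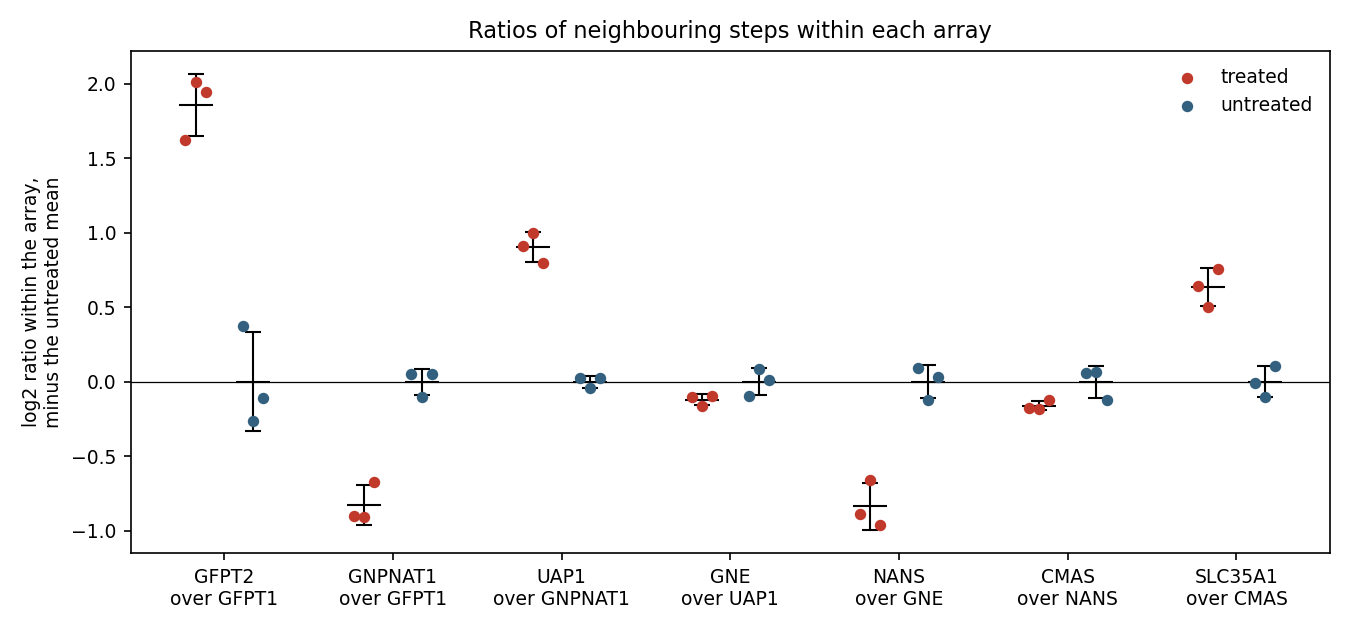
Log2 ratio of neighbouring genes of the route within each array, minus its mean over untreated arrays (vertical axis), for 3 treated (red) and 3 untreated (blue) arrays; bars are means and whiskers SD (n = 3 per group). GFPT2 over GFPT1, UAP1 over GNPNAT1 and SLC35A1 over CMAS are higher in treated cells, GNPNAT1 over GFPT1 and NANS over GNE are lower, and the points of GNE over UAP1 and CMAS over NANS nearly touch.

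Genes around the route were counted in 6 lists, with 1 probe set per gene, that with the highest mean. Together they held 85 measured genes, of which 19 rose and 22 fell (48.2% called, against 34.8% of all probe sets). With the dimmest probe sets left out, 360 of 840 were called, and whether the neighbours exceed either share was not tested. Salvage and turnover of amino sugars had 1 rise (16.7% called, below the 34.8% of all probe sets). Of 6 measured salvage and turnover genes RENBP, a renin-binding protein with N-acetylglucosamine 2-epimerase activity, rose by 0.36 ± 0.09 on the log2 scale (SE, limma adjusted p = 0.00909). Not called were NAGK, the GlcNAc kinase (-0.12), GNPDA1, the deaminase that runs against GFPT (-0.07), NPL, which cleaves sialic acid (0.09), and the O-GlcNAc enzymes OGT (-0.23, limma adjusted p = 0.0692) and OGA (-0.13). OGT was called as lower after median centring (limma adjusted p = 0.0307), with array weights (0.047) and without untreated replicate 3 (0.0237).

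The list of sialic acid release and lysosomal export had 2 rises and no fall among 6 measured genes, a called share of 33.3% that is near the 34.8% of all probe sets. NEU1, the lysosomal sialidase, stood at 9.50 ± 0.08 in treated and 8.53 ± 0.04 in untreated cells (SD, n = 3 each; limma adjusted p = 2.19e-06), and its other probe set rose by 1.06. Both NEU1 probe sets, like that of RENBP, have name endings that mark probes able to bind more than 1 transcript. SLC17A5, which exports free sialic acid from lysosomes, stood at 9.34 ± 0.09 in treated and 8.53 ± 0.15 in untreated cells (SD, n = 3 each; limma adjusted p = 4.22e-05). CTSA, the protein that stabilises NEU1, changed by 0.04 and was not called, nor were NEU2 (-0.17), NEU3 (0.15) and NEU4 (-0.12), though NEU2 was called as lower after quantile normalization and after median centring, NEU4 as lower after quantile normalization and NEU3 as higher with array weights.

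Among 20 genes of the other nucleotide sugar branches 2 rose and 10 fell (10% and 50%, against 18.0% and 16.8% of all probe sets), with a median change of -0.27. The 6 with the smallest p were all falls: MPI, PGM1, GMDS, GALT, FPGT and GPI, with log2 changes between -0.83 and -0.56. GPI (11.07 in treated and 11.63 in untreated cells, limma adjusted p = 0.000508) interconverts glucose-6-phosphate and fructose-6-phosphate, the substrate of GFPT1 and GFPT2. The probe set of GPI, like that of SLC35A3 below, can bind more than 1 transcript. The 2 rises, named after their values were seen, were HK1 (0.47), a hexokinase, and UXS1 (0.60), which makes UDP-xylose. Of 12 other nucleotide sugar transporters 2 rose and 5 fell (16.7% and 41.7%, against 18.0% and 16.8% of all probe sets), with 1 rise left without treated replicate 1 or 2 or untreated replicate 1 or 3, and 3 falls left without untreated replicate 2. SLC35A3, the Golgi UDP-GlcNAc transporter, also named after its value was seen, changed by 0.02 ± 0.12 (SE) and, like SLC35A1, was not called.

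The enzymes that use the products of the route were mixed. Of 20 sialyltransferases, the users of CMP-sialic acid, 7 rose and 2 fell (35% and 10%, median change 0.18), and of 22 N-acetylglucosaminyltransferases, the users of UDP-GlcNAc, 5 rose and 5 fell (22.7% in each direction, median change 0.06). Over all probe sets 18.0% rose and 16.8% fell. After median centring the N-acetylglucosaminyltransferases had 3 rises and 8 falls, and without treated replicate 3 or untreated replicate 2 they had 3 rises. Without the dimmest probe sets 2 of the sialyltransferase rises were left. Whether any of these lists differs from the supply genes was not tested.

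**Figure D4:**
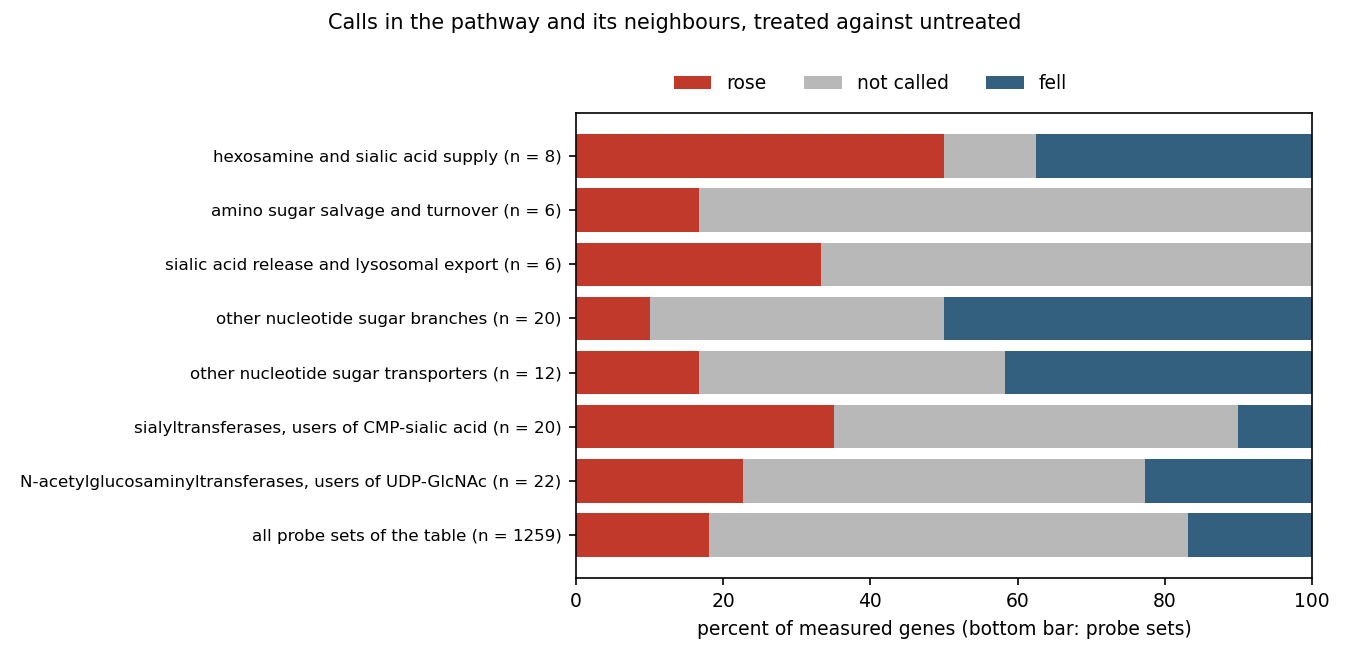
Percent of measured genes that rose (red), were not called (grey) or fell (blue) in treated against untreated cells at a limma adjusted p under 0.05, for the supply route, 6 neighbouring lists and all probe sets. The supply route has the largest share of called genes and of rises among these bars, and the other nucleotide sugar branches have the largest share of falls (50%). Without treated replicate 1 the route had 2 rises among 8 genes and the sialyltransferases 7 among 20, so its first place in rises was lost.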

How the data were processed

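Total RNA was hybridised to Affymetrix arrays as biotinylated cRNA, per the labels' protocols. The authors deposited log2 values, 1 column per array and 1 row per probe set. Per the submitters' processing notes the values come from RMA; the version, settings, array design and build are not stated there. RMA compresses changes of dim probe sets and pulls arrays toward 1 distribution. No detection calls were used. The number of unused columns was 0.

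RefSeq identifiers in the probe set names were matched without versions to a RefSeq table (GRCh38.p14), and 216 probe sets stayed unnamed. All 1259 were fitted with limma 3.58.1 (R 4.3.3): lmFit with treatment as the only term, eBayes, two-sided p-values, Benjamini-Hochberg adjustment over all probe sets, threshold 0.05. The code was tested on simulated data. The steps compare 3 treated with 3 untreated arrays, and this number limits the precision. At most 5 values were identical between any pair of arrays.

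The genes and lists were chosen with earlier results of these data known. Named are all supply genes, all salvage and sialic acid release genes, up to 6 called genes with the smallest p in a list, and 3 genes most like GFPT2; others are marked. Alternatives were quantile normalization, median centring, leaving out dim probe sets, an intensity trend, array weights, a replicate block, each array left out and thresholds of 0.01 and 0.1.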

Additional observations from a re-analysis of the deposited data

How the results depend on the processing

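GFPT2, GNPNAT1, UAP1, NANS and CMAS kept their direction and call in all 12 alternatives. GFPT1 lost its call after median centring, where its rise was 0.33 on the log2 scale, and without treated replicate 1 or untreated replicate 3, with a leave-one-out range of 0.31 to 0.51. GNE lost its call without treated replicate 1, with a leave-one-out range of 0.28 to 0.43. The causes were not tested. The rises among the supply genes therefore numbered 2 without treated replicate 1 and 4 at most when an array was left out, and 2 at an adjusted p under 0.01. The falls numbered 3 throughout. Over all probe sets the 227 rises and 211 falls became 197 and 311 after median centring, which moved the median change of all probe sets by -0.07, and 220 and 265 after quantile normalization. Same-numbered arrays did not deviate together (correlations of -0.27, 0.04 and -0.11), and no array correlated best with its own number. Deviations from a mean of 3 arrays depend on each other, so these correlations cannot decide whether arrays were paired. Differently numbered arrays correlated at -0.33 to 0.42, highest for treated 3 with untreated 1 (0.42), treated 1 with untreated 2 (0.41) and treated 2 with untreated 3 (0.23), and the labels give no such pairing. With a replicate block 394 probe sets were called, against 438, and the 7 supply genes stayed called. No detection call was used, so low probe set values cannot be set against background.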
